A study of Canis lupus familiaris with 29 samples.

Results

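The genes of the cytosolic ribosomal proteins were followed across every group of an RNA-seq series on MDCKII cells, a dog kidney epithelial line. Members were chosen by name alone: symbols made of RPL or RPS, a number and at most a closing A or X, together with RPLP0, RPLP1, RPLP2, RPSA and FAU. The rule found 42 members among 24223 genes, 25 of the large 60S subunit and 17 of the small 40S subunit. A further 34 names that fit the rule, RPLP0, RPLP2, FAU, RPS6, RPL3, RPL22, RPS27 and RPS27A among them, were not analysed here. Of the 42 members, 35 passed the filter on low values (at least 1 FPKM in at least 2 libraries) and were tested. FPKM counts fragments relative to transcript length and to the mapped fragments of the library, so levels of different genes are compared per length.

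The ribosome is built from ribosomal RNA and a fixed set of proteins, each needed in about the same number of copies. The mRNAs of nearly all of these proteins begin with a run of pyrimidines, the TOP motif, through which growth signals of the mTORC1 pathway adjust their translation and stability together. Making new subunits also takes a large set of nucleolar processing factors, many of them targets of MYC, which are not part of the finished ribosome. Epithelial cells of the kidney line slow their growth as they form a polarised sheet or cyst.

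The 29 libraries fell into 13 groups of MDCKII cells. Wild-type cells came as the suspension used for seeding (day 0, n = 4) and as 3D cultures on matrigel, with 2 libraries for each of 24 h, day 3, day 5 and day 8 and a single one for day 14. Over-confluent wild-type 2D cultures on transwell inserts gave 3 libraries at day 4 and 3 at day 11. Knockdown (KD) cells were targeted for either AVL9 or DENND5A, both genes of the DENN domain family. Each knockdown had 2 libraries at day 0 and 2 at 2D day 4, and DENND5A-KD had 2 more at 2D day 7. DENND5A-KD samples are numbered 1 and 2 and AVL9-KD samples 1 and 4, and the labels do not say whether these stand for clones or for reagents. No control line handled like the knockdowns is among the samples. Nothing in the labels ties replicates to separate cultures, and the spread behind each p-value may therefore be technical.

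Relative depth was 0.45 to 1.68. It was read from the most common ratio between the very low FPKM values of day 0 replicate 2 (set as 1) and those of each library. The shallow wild-type libraries (0.45 to 0.72) were 5 in number, namely the day 14 library and replicate 1 of the seeded cells, of the day 3 and day 8 cysts and of the day 4 monolayers. The other 14 wild-type libraries had depths of 0.83 to 1.11. The 10 knockdown libraries ranged from 0.54 to 1.68, with 0.7 in AVL9-KD day 0 replicate 1 and 0.54 in AVL9-KD 2D day 4 replicate 4. DENND5A read 1.88 to 2.02 FPKM in its knockdown at day 0 against 4.98 to 6.89 in wild type, and AVL9 read 5.7 to 7.21 against 22.2 to 23.7. The 6 kidney epithelial markers analysed (CDH1, EPCAM, CDH16, PAX8 and OCLN among them) each reached 1 FPKM, with a summed level of 509 to 948 FPKM per library. None of the 5 fibroblast, 5 endothelial and 4 leukocyte markers analysed reached 1 FPKM in 2 libraries. Their summed levels stayed at or under 0.644, 0.947 and 0.694 FPKM, and CD3E was listed at 0 in every library. The fibroblast markers COL1A2 and COL3A1 were above 0 in all 5 shallow libraries (0.0148 to 0.16 FPKM). Elsewhere they were above 0 only in AVL9-KD day 0 replicate 4 (0.0115 and 0.00717 FPKM). In bulk RNA, fewer cells of a kind and less RNA per cell cannot be told apart.

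The members spread over a wide range of levels. A class of 26 members had a mean of at least 50 FPKM over all libraries, 13 of the 60S and 13 of the 40S subunit, with means from 113 to 822 FPKM and a median of 403 FPKM. RPL8, which lies close to the catalytic centre of the large subunit, had the highest mean, 822 FPKM, and RPL5, which carries the small ribosomal RNA of the large subunit into the ribosome, the lowest of the class, 113 FPKM. Another 4 members had means of 5 to 50 FPKM: RPL23 (46.1), RPL39 (34.5), RPL17 (17.3) and RPL26 (10.7). The means of 8 more were under 5 FPKM: RPS15A (2.67), RPL37 (1.57), RPL34 (1.02), RPS19 (0.57), RPL21 (0.417), RPL11 (0.148), RPL31 (0.0762) and RPSA (0.0211). RPL30, RPL38, RPLP1 and RPS24 were listed at 0 in all 29 libraries. The 7 members not tested were these 4 with RPL11, RPL31 and RPSA.

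All these proteins belong to the same particle, so a listed 0 or a level under 5 FPKM beside a class median of 403 FPKM is not read here as absence. Mammalian genomes hold many near-identical copies of ribosomal protein genes, and how reads were shared among copies is not given in the sources used here. The levels, above all of the low members, are uncertain to that extent. For 1 member the name appeared on 2 rows, of which the higher was used. A gene well above 0 elsewhere could also be listed at 0 in a single library. RPL39, with a mean of 34.5 FPKM, read 0 in 2D day 4 replicate 1 and 5.55 to 96.3 FPKM in the others.

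Ribosomal protein mRNA was most abundant in the later 3D cysts. Summed over the 42 members, the 4 day 0 libraries held 10483, 9067, 9073 and 7501 FPKM. The 24 h libraries held 8631 and 10475 FPKM, within the range of day 0. At 3D day 3 the sum stood at 13933 and 15793 FPKM. Day 5 gave 22702 and 12657 FPKM, day 8 gave 17989 and 18471 FPKM, and the lone day 14 library 20033 FPKM. The 2D cultures held 9975, 9855 and 7848 FPKM at day 4, and 9982, 10035 and 9256 FPKM at day 11. All 7 libraries of 3D days 3 to 14 (12657 to 22702 FPKM) lay above all 22 other libraries (7501 to 12403 FPKM). As a share of each library's total FPKM the members took 3.16% to 6.17% in the 7 and 2.44% to 3.72% in the 22, and these ranges overlapped. With libraries scaled by median ratio, the sums were 13406 to 23838 in the 7 and 8061 to 10835 in the 22.

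**Figure D1:**
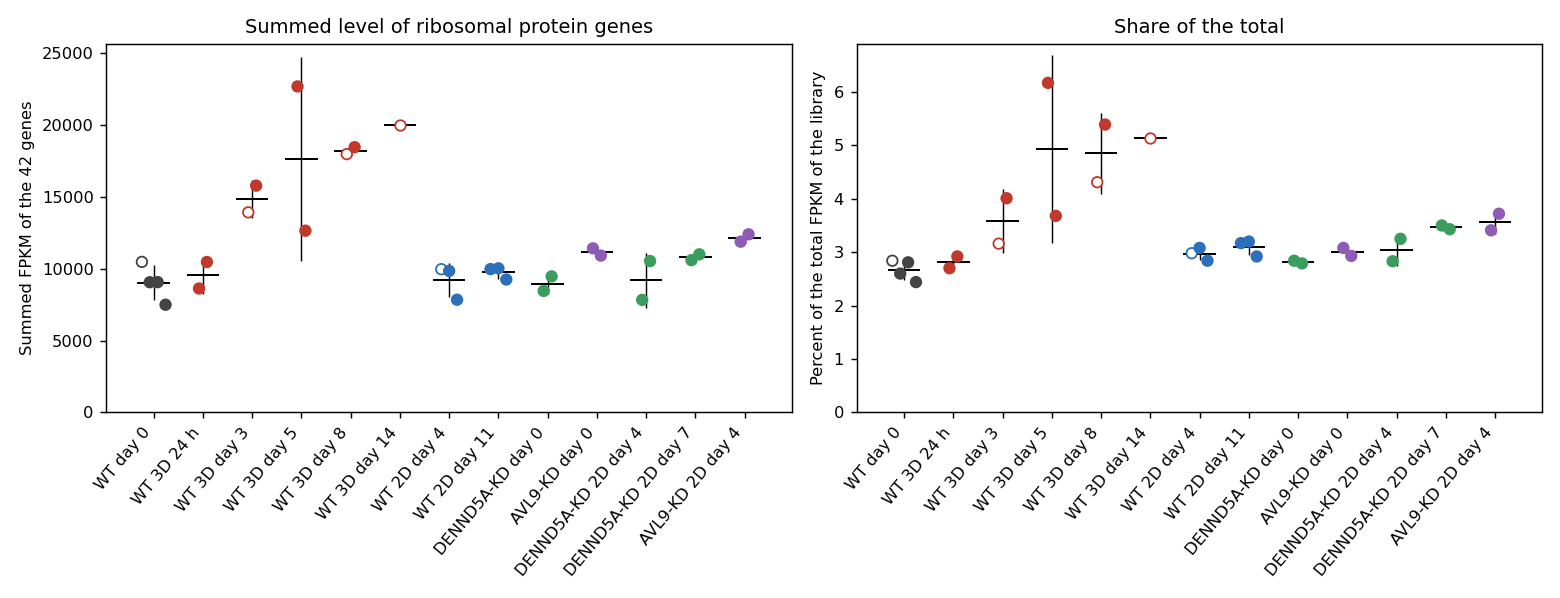
Summed FPKM of the 42 ribosomal protein genes (left) and their percent of the library's total FPKM (right) by group. Each point is a library, open points are the 5 shallow ones, the horizontal line is the group mean and the vertical line its SD. The 7 libraries of 3D days 3 to 14 hold 12657 to 22702 FPKM, and the other 22 hold 7501 to 12403 FPKM.

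The 3D time course asks how expression changes as single cells grow into cysts. Against day 0, 24 of the 35 tested members were higher at 3D day 3 and none lower, where 28.0% of all 11774 genes tested were higher. At day 5, 26 members were higher and none lower (26.4% of all genes were higher), and at day 8, 31 were higher and none lower (24.7%). Median log2 fold changes of the 35 were 0.70, 0.87 and 1.02, and the medians of all genes were 0.05, -0.04 and -0.13. These changes are differences of log2(FPKM + 1) from limma fitted over all 29 libraries, called at a Benjamini-Hochberg adjusted p under 0.05, and they understate the change of low genes. In the class of at least 50 FPKM, whose members passed the filter in every group, 23, 25 and 25 of 26 were higher. The medians were alike in both subunits: at day 8 the 13 members of the 60S subunit had a median log2 fold change of 1.09 and the 13 of the 40S subunit 1.02. The 3 comparisons share the day 0 libraries and are therefore not independent of each other.

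The counts at days 3 and 5 leaned on 1 library each. Without day 3 replicate 2, 10 members were called at day 3, and without day 5 replicate 2, 13 were called at day 5. Day 5 replicate 2 was above replicate 3 in all 26 members of the highest class, by 1.28 to 2.47 times, with a median of 1.79. Scaling moved the median of all genes by more than 0.1 in several comparisons. At day 8 that median was -0.24 with equal totals over all other genes and 0.00 with median-ratio scaling, and the members' medians were then 0.92 and 1.22. The split of all genes called at day 8 was 2911 higher and 4478 lower, and 3874 higher and 3865 lower with median-ratio scaling. At day 3 it was 3294 higher and 2715 lower, and 2076 higher and 4576 lower with equal totals over the other genes, where 17 members were called higher.

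**Figure D2:**
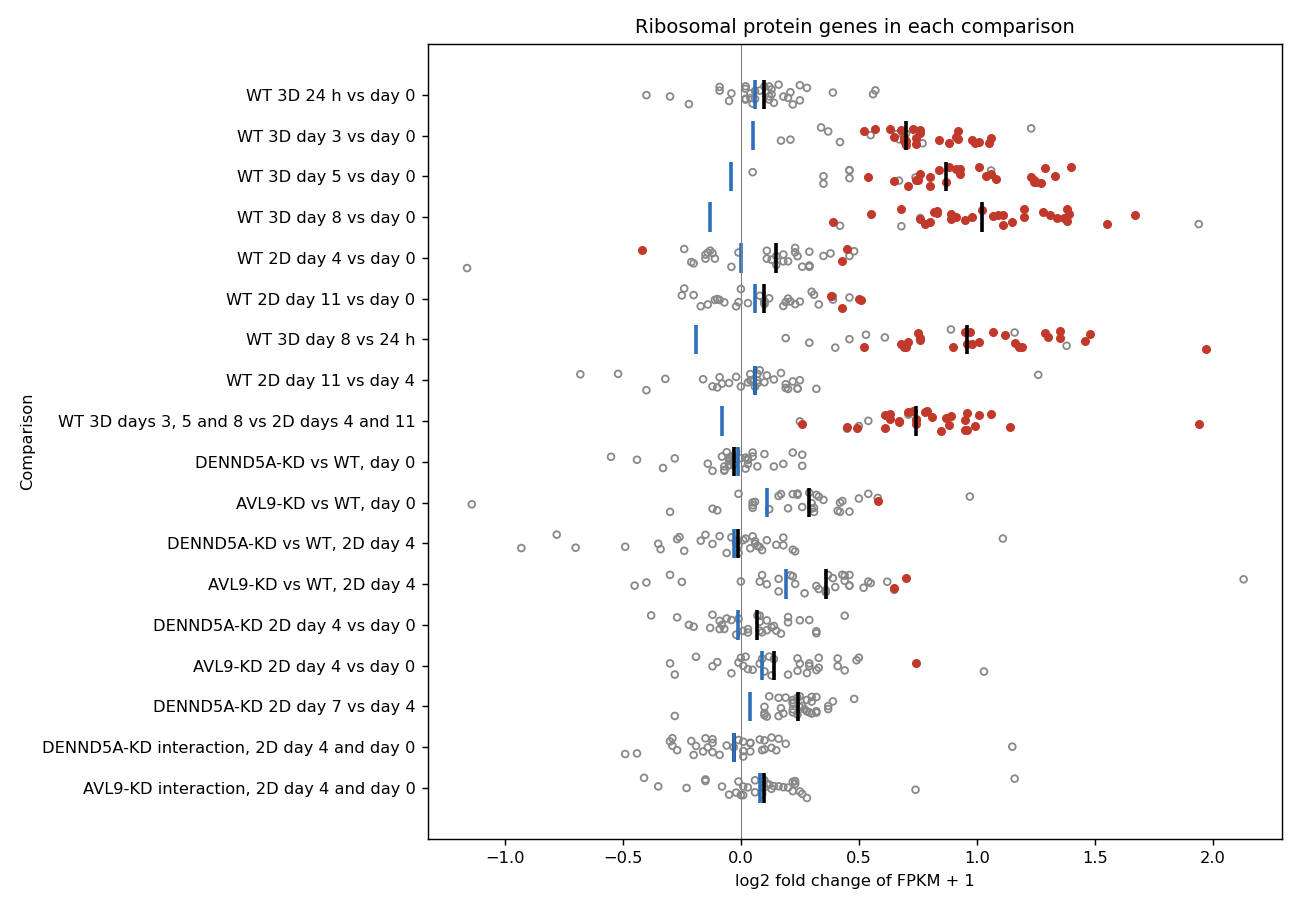
Log2 fold change of FPKM + 1 for the 35 ribosomal protein genes tested in each of 18 comparisons. Each point is a gene, filled where the adjusted p is under 0.05, the black bar is their median and the blue bar the median of all genes tested. The genes lie to the right of 0 at 3D days 3, 5 and 8 (medians 0.70, 0.87 and 1.02) and around 0 in the 2D and most knockdown comparisons.

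Among the genes of the large subunit, RPL9, whose protein sits near the site where translation factors bind, rose most in the highest class at days 5 and 8. It read 222, 247, 262 and 214 FPKM at day 0, 361 and 659 in the day 3 cysts, 980 and 396 in those of day 5, and 631 and 756 in those of day 8. Every one of these cyst libraries lay above every day 0 library, and the log2 fold change was 1.55 ± 0.27 (SE) at day 8 (limma, adjusted p 5.39e-05). RPL10A, a protein of the mobile L1 stalk, read 389, 259, 251 and 216 FPKM at day 0 and 808 and 615 at day 8. Its groups did not overlap either, and it rose by 1.37 ± 0.25 on the log2 scale (adjusted p 8.44e-05). RPL35A, one of the genes mutated in Diamond-Blackfan anaemia, went from 142 ± 27.1 FPKM (SD, n = 4) at day 0 to 358 and 357 FPKM in the day 8 libraries. RPL19 went from 440 ± 38.7 (SD, n = 4) to 1099 ± 197 FPKM (SD, n = 2). RPL17, which lines the exit tunnel of the nascent chain, is a low member: it read 16.2, 9.99, 11.5 and 9.52 FPKM at day 0 and 44.5 and 34.2 at day 8, a log2 fold change of 1.67 ± 0.28 (adjusted p 3.37e-05).

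The mRNAs of small subunit proteins moved alike. RPS7, which takes part in maturing the RNA of the small subunit, read 402, 396, 396 and 328 FPKM at day 0, 562 and 701 in the day 3 cysts, 1217 and 667 in those of day 5, and 923 and 1062 in those of day 8. All 6 cyst libraries were above all 4 day 0 libraries, and the log2 fold change at day 8 was 1.38 ± 0.19 (limma, adjusted p 3.32e-06). RPS26, which lies where the mRNA leaves the subunit, read 153, 169, 166 and 144 FPKM at day 0 and 306 and 432 at day 8. RPS3, at the entry of the mRNA channel, went from 407 ± 75.8 FPKM (SD, n = 4) to 843 ± 22.0 (SD, n = 2), and RPS4X from 465 ± 45.0 to 1004 ± 80.1.

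The size of the rise varied among members of the highest class, from a log2 fold change of 0.39 to one of 1.55 at day 8. RPL5 was at the lower end: it read 114, 108, 106 and 86.1 FPKM at day 0 and 133 and 137 at day 8, a log2 fold change of 0.39 ± 0.14 (limma, adjusted p 0.0226). RPL35, at the rim of the exit tunnel where nascent-chain factors dock, was the only member of the class not called at day 8. It read 910, 711, 713 and 623 FPKM at day 0 and 999 and 963 at day 8, with no overlap but a log2 fold change of 0.42 ± 0.20 (adjusted p 0.0715). RPL28 (0.68 ± 0.20) and RPL8 (0.78 ± 0.18) were also among the smaller changes.

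Over the 12 groups with replicates, the profiles of the 26 members of the highest class correlated with the median profile of the tested members with r between 0.66 (RPL35) and 0.98. The median r was 0.95, given as a description over 12 group means that share libraries and depth. Departures from that median profile were widest in RPL39 (root mean square 0.54 on the log2 scale), RPL37 (0.39), RPL34 (0.31), RPL26 (0.30), RPS19 (0.30), RPL17 (0.29), RPS15A (0.28) and RPL35 (0.27). Apart from RPL35, these are members with means under 50 FPKM.

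**Figure D3:**
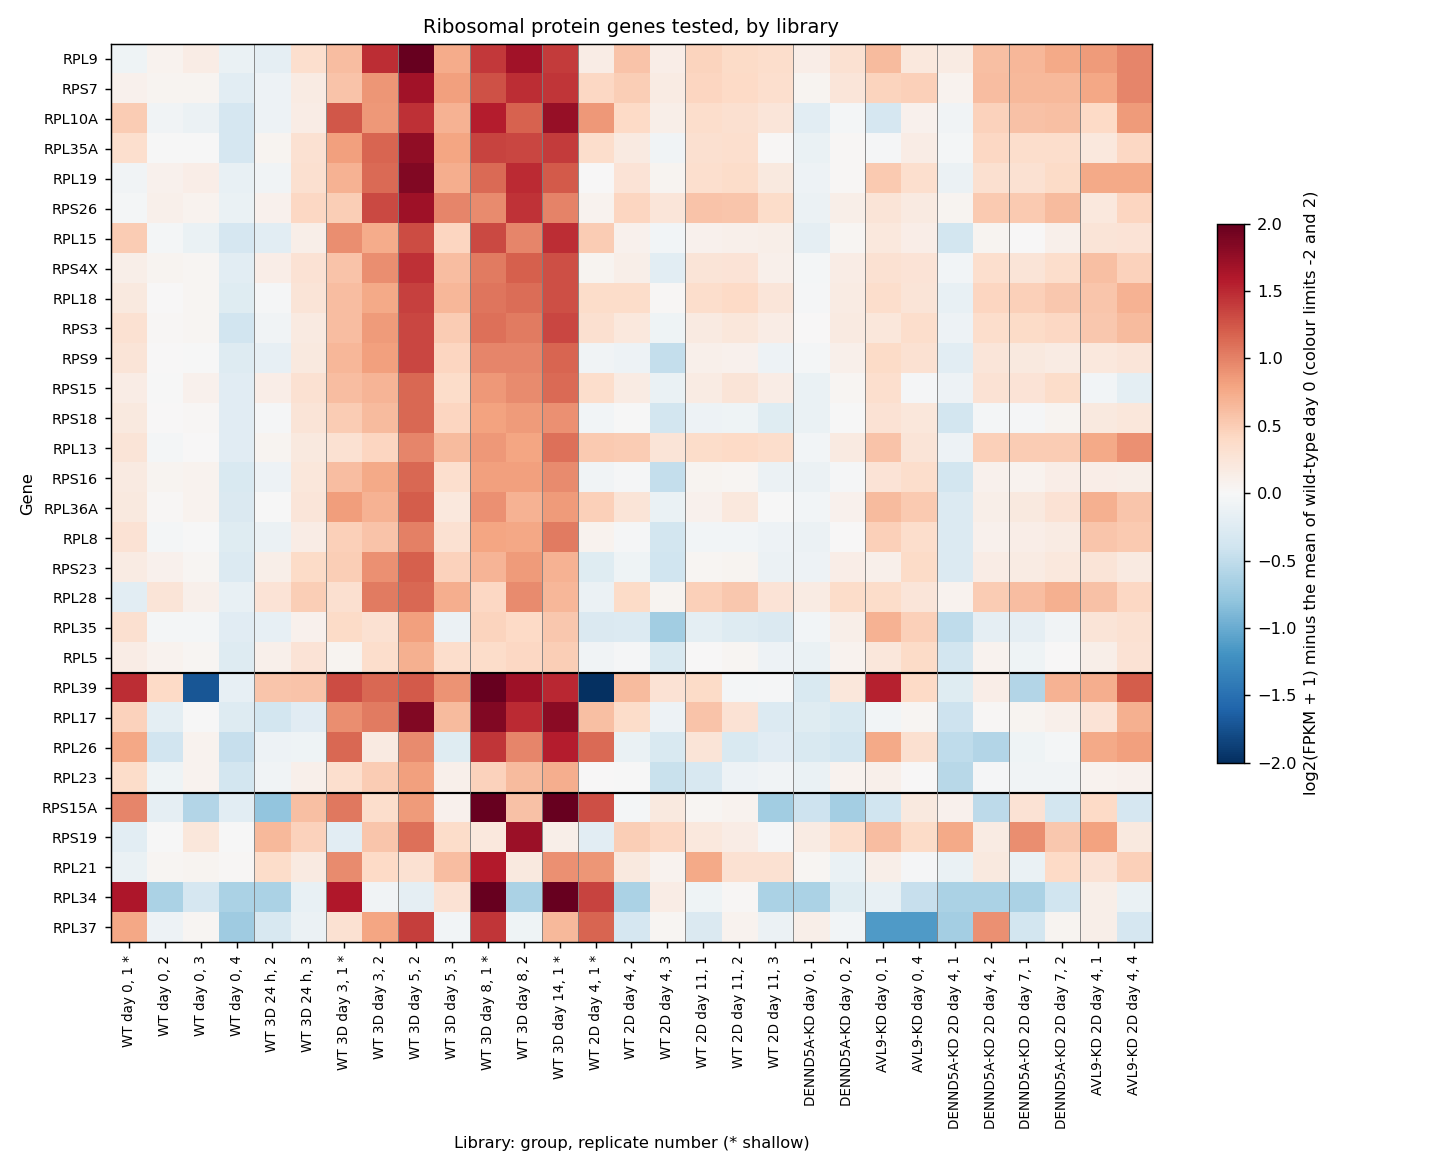
Heat map of 30 of the 35 ribosomal protein genes tested (rows, by level class and then by day 8 change) in the 29 libraries (columns, shallow ones with an asterisk). Colour is log2(FPKM + 1) minus the mean of the wild-type day 0 libraries. The 21 genes of at least 50 FPKM shown, above the first black line, are high together in the 3D columns from day 3 to day 14, most of all in day 5 replicate 2.

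Several low members differed between the 5 shallow wild-type libraries and the rest more than between cultures. RPL34 read 2.97 to 6.65 FPKM in the 5 shallow libraries and 0 to 0.896 in the other 24, without overlap. RPS15A read 4.31 to 11.3 FPKM in the shallow set and 0.573 to 3.87 elsewhere, also without overlap. RPL26 read 14.3 to 25.5 against 4.96 to 16.5 FPKM, and the ranges overlapped. RPS27L, a paralog outside the rule, reached 11.6 to 22.3 FPKM in the shallow set and at most 1.37 FPKM elsewhere. AVL9-KD day 0 replicate 1 and 2D day 4 replicate 4 had depths of 0.7 and 0.54 but are not in the shallow set. They read 0.408 and 0.422 FPKM for RPL34, 1.06 and 1.15 for RPS15A, 14.1 and 14.7 for RPL26, and 0 in both for RPS27L. The deeper AVL9-KD libraries read 10.1 (day 0 replicate 4, depth 1.68) and 14 FPKM (2D day 4 replicate 1, depth 1.64) for RPL26. Whether depth plays a part in these differences was not tested. RPS19, another gene mutated in Diamond-Blackfan anaemia, read lower in the shallow library of each of the 4 groups (0 to 0.33 FPKM against 0.142 to 2.77 elsewhere). RPL37 ran from 0 to 4.97 FPKM and RPL21 from 0 to 2.27 FPKM over all libraries. The highest class was not free of such differences. Of its 26 members, 5 read higher and 4 lower in the shallow library of all 4 groups. Mean log2 differences, shallow minus other, were 0.52 for RPL10A, 0.43 for RPL15, -0.47 for RPL28, -0.42 for RPS26 and -0.36 for RPL9. The median over the 26 was 0.06. At day 8 RPS15A, RPS19 and RPL21 were among those called, RPS15A and RPS19 with overlapping groups, and RPL34, RPL37, RPL39 and RPL35 were not called. The shallow and the other day 8 library read 11.3 and 3.07 FPKM for RPS15A, 0.33 and 2.77 for RPS19, and 2.27 and 0.255 for RPL21. A fit without the shallow libraries leaves 1 day 8 library, so the part of the shallow libraries in these 3 calls was not tested with replicates.

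The rise in cysts was present within both sets of libraries. Between the shallow libraries alone, the day 3 cyst was above day 0 in 25 of the 26 members of the highest class, by a median of 0.46 on the log2 scale, and the day 8 cyst in 26 of 26, by 0.77. Between the other wild-type libraries the medians were 0.91 and 1.14, and all 26 were higher at both times. Each of these day 3 and day 8 medians rests on 1 cyst library, and those of the shallow set also on 1 day 0 library. The other day 3 library is replicate 2, on which the day 3 count leaned. With the 5 shallow libraries left out of the fit, the members' median log2 fold changes were 0.91, 0.92 and 1.14 at days 3, 5 and 8. For 2D day 4 against day 0 the medians of the highest class were 0.01 in the shallow libraries (15 of 26 higher) and 0.13 in the others (15 of 26 higher).

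In 2D cultures the members stayed near their day 0 level while most other genes changed. At 2D day 4, 2 of 35 members were higher and 1 lower than at day 0, where 59.9% of all genes were called in either direction. At 2D day 11, 4 were higher and none lower (55.9% of all genes were called). Median log2 fold changes were 0.15 and 0.10, against 0.00 and 0.06 for all genes. RPS26 was called at day 11: it read 234, 231 and 204 FPKM there, all above the 144 to 169 FPKM of day 0. Its log2 fold change was 0.50 ± 0.19 (limma, adjusted p 0.0321).

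RPL35 went the other way at 2D day 4, with 599, 604 and 452 FPKM against 623 to 910 at day 0. It fell by 0.42 on the log2 scale (SE 0.18, limma, adjusted p 0.045), and the groups did not overlap. RPL13 was called higher at 2D day 4 (0.43 ± 0.13), where its groups touched at 107 FPKM, and at day 11 (0.38 ± 0.13). RPL28 (0.43 ± 0.18) was called higher at day 11. The call count at 2D day 4 was 12 higher and 1 lower with quantile normalization, 4 and 1 with median-ratio scaling, 5 and 0 with equal totals over the other genes, and 1 and 0 without the shallow libraries. At 2D day 11 it was 8 higher and 1 lower with quantile normalization and 2 higher with median-ratio scaling. At 2D day 4, 1 member was called higher without day 0 replicate 4 or without 2D day 4 replicate 1 or 2. At 2D day 11, 1 was called without day 0 replicate 4 or without 2D day 11 replicate 1 or 2, and 2 without day 0 replicate 1. Between 2D day 11 and day 4, limma called no member, with none at an unadjusted p under 0.05, and 2.08% of all genes were called.

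The difference between the 2 cultures was tested directly, as the mean of 3D days 3, 5 and 8 against the mean of 2D days 4 and 11. Of the 35 members 30 were higher in 3D and none lower, where 22.1% of all genes were higher and 56.9% were called in either direction. All 26 members of the highest class were among the 30. The median log2 fold change was 0.74, against -0.08 for all genes, and the class medians were 0.74 for the 60S and 0.85 for the 40S subunit. The 5 members not called, RPL34, RPS19, RPL21, RPL37 and RPS15A, are low members. With equal totals over the other genes the median of all genes was -0.29 and that of the members 0.47, with 26 called. The split of all genes then was 1317 higher and 6432 lower, against 2602 and 4094, and it was 3541 and 3589 with median-ratio scaling, where 31 members were called.

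RPL35A, of the large subunit, read 248, 315, 479, 242, 358 and 357 FPKM in the 6 cyst libraries and 180, 158, 133, 175, 177 and 143 in the 6 2D libraries, which did not overlap. The log2 fold change was 1.01 ± 0.14 (limma, adjusted p 7.4e-06). RPL9 (0.99 ± 0.18) and RPL19 (0.96 ± 0.15) showed differences of like size, and RPL17 among the low members stood at 1.06 ± 0.19. RPL35 differed by 0.71 ± 0.13 (adjusted p 0.000147) and RPL5 by 0.45 ± 0.09 (adjusted p 0.000408). RPL13 had the smallest called difference, 0.26 ± 0.10 (adjusted p 0.0337), with overlapping groups. RPL39, which lines the exit tunnel, had a log2 fold change of 1.94 ± 0.63, which rested in part on its listed 0 in 2D day 4 replicate 1: without that library it was 1.12 (adjusted p 0.0192, range over all alternatives 0.00278 to 0.0303).

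Complete separation was common among the members. In 19 of the 35, every cyst library of days 3, 5 and 8 lay above every wild-type library of day 0, 24 h and 2D culture, as did 3.34% of all genes tested (393 of 11774). Among the 19 were RPL8, RPL9, RPL17, RPL18, RPL19, RPL35A, RPS3, RPS4X, RPS7, RPS9, RPS15, RPS16, RPS18 and RPS23.

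**Figure D4:**
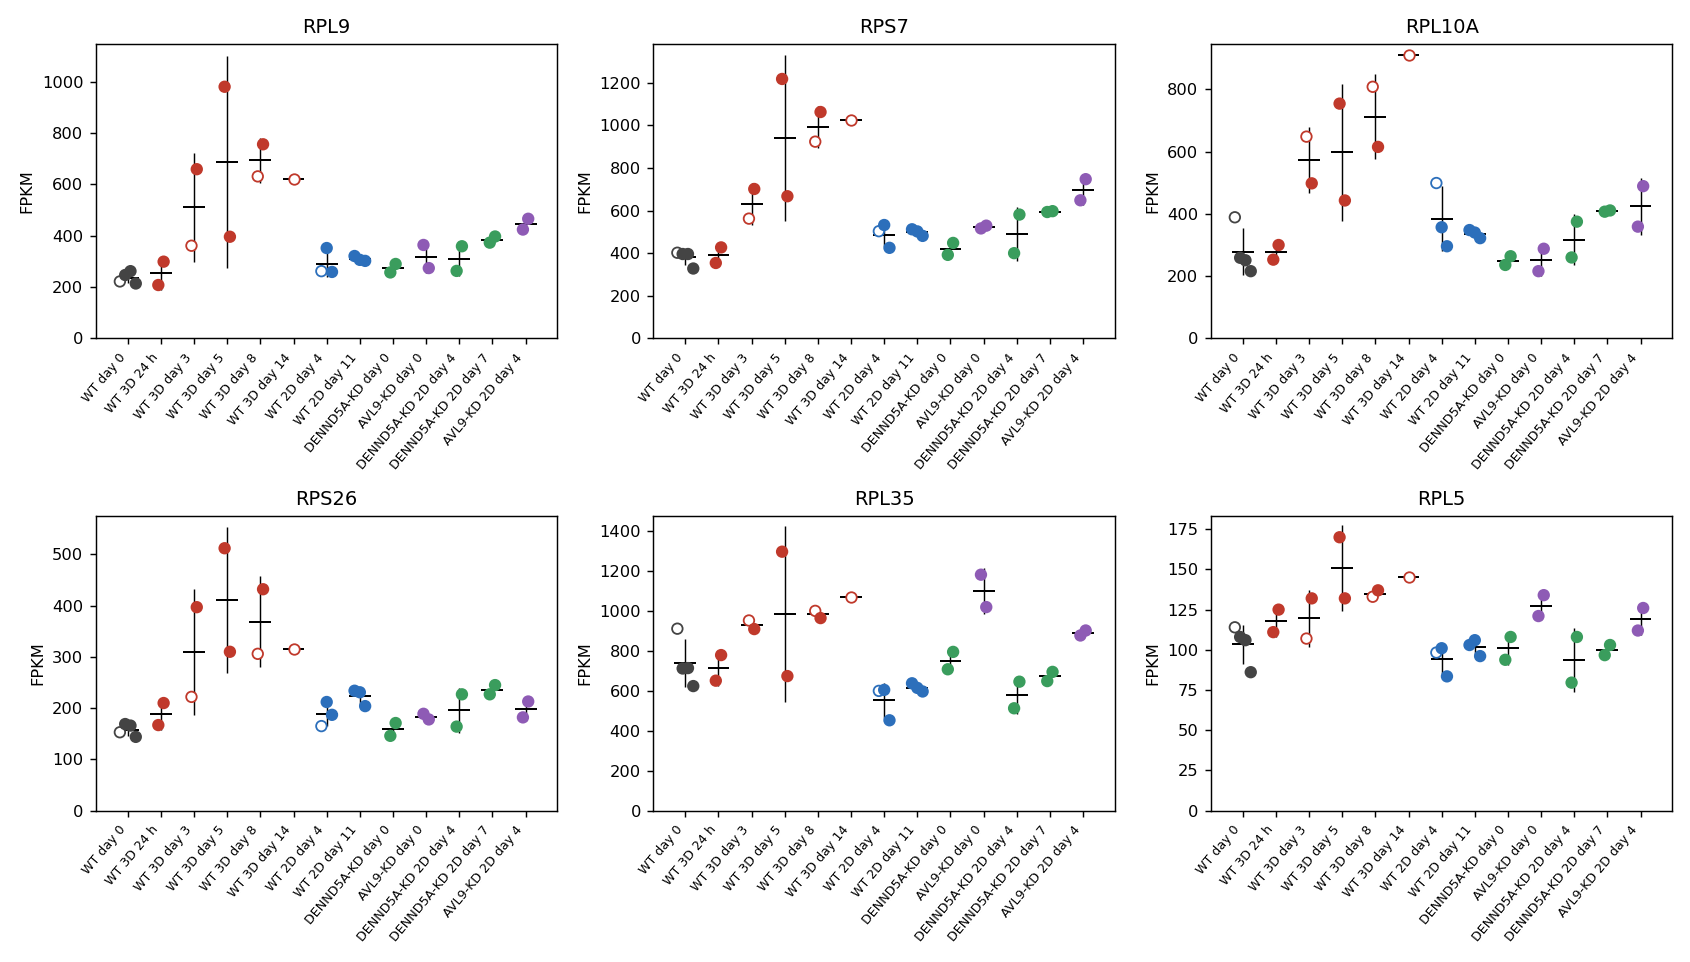
FPKM of 6 ribosomal protein genes by group. Each point is a library, open points are shallow ones, the horizontal line is the group mean and the vertical line its SD. RPL9, RPS7, RPL10A and RPS26 read above every day 0 library in the cysts of days 3 to 14, RPL5 spans 79.6 to 170 FPKM in all, and RPL35 is lowest in 2D day 4 replicate 3 (452 FPKM).

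At 24 h, limma called no member against day 0, with none at an unadjusted p under 0.05, a smallest adjusted p of 0.424 and 1.19% of all genes called. RPS7 read 354 and 427 FPKM at 24 h and RPL9 208 and 299, within or around their day 0 values. From 24 h to day 8, 26 members were higher and none lower (17.3% of all genes were higher), with a median log2 fold change of 0.96 against -0.19 for all genes. All genes split into 2038 higher and 4293 lower there, and into 3290 and 3305 with median-ratio scaling. Without 24 h replicate 2, 19 were called.

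In DENND5A-KD cells no member was called different from wild type. Limma called none of 35 at day 0, where 5.52% of all genes were called, and none at 2D day 4, where 11.3% were called. No member had an unadjusted p under 0.05 in either comparison, and the medians were -0.03 and -0.01. Leaving out 1 library moved the median between -0.11 and 0.08 at day 0 and between -0.23 and 0.2 at 2D day 4. With 2 knockdown libraries at each time, small changes could go uncalled. Within DENND5A-KD cells none was called between day 0 and 2D day 4 (42.3% of all genes were called, median 0.07). From 2D day 4 to day 7, 34 of 35 log2 fold changes were above 0, with a median of 0.24 and none called or under an unadjusted p of 0.05 (0.0510% of all genes were called). The median was 0.04 without 2D day 4 replicate 1 and 0.45 without 2D day 4 replicate 2. The summed level was 7839 and 10543 FPKM at 2D day 4 and 10604 and 11009 FPKM at day 7, so the later pair was above the earlier.

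AVL9-KD cells read slightly higher than wild type. At day 0, 1 member was higher and none lower (18.0% of all genes were called), and at 2D day 4, 2 were higher and none lower (21.0%). The medians were 0.29 and 0.36, with 0.11 and 0.19 for all genes. An unadjusted p under 0.05 was found for 7 and 13 of the 35 members. That cutoff is looser than the adjusted one, so at least 18.0% and 21.0% of all genes passed it too. These counts are therefore not read as a result about the members. RPL35 was the member called at day 0, with 1180 and 1018 FPKM in AVL9-KD and 623 to 910 in wild type (0.58 ± 0.20, limma, adjusted p 0.0478). At 2D day 4 it read 876 and 901 FPKM against 452 to 604 (0.70 ± 0.21, adjusted p 0.0233). RPL8 at 2D day 4 read 998 and 982 FPKM against 527 to 713 (0.65 ± 0.18, adjusted p 0.0175). None of these groups overlapped.

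These few calls depended on the scaling. With median-ratio scaling no member was called higher in either comparison, and the medians were 0.15 and 0.12. At day 0 the split of all genes was 1578 higher and 540 lower, and 1113 and 1146 with that scaling. At 2D day 4 it was 2199 and 275, and 887 and 870 with that scaling. At day 0, leaving out either knockdown library or wild-type replicate 2, 3 or 4 left 0 members called, and leaving out wild-type replicate 1 gave 4. At 2D day 4, leaving out either knockdown library or wild-type replicate 3 left 0, and leaving out wild-type replicate 2 gave 4. With the replicate block, 4 were called higher at 2D day 4. Within AVL9-KD cells, RPL10A was the 1 member called (0 without 2D day 4 replicate 4) between day 0 and 2D day 4 (53.9% of all genes were called). It read 216 and 288 FPKM and then 359 and 489, a log2 fold change of 0.74 ± 0.29 (limma, adjusted p 0.0351), and with the replicate block 2 members were called. The change of the knockdown effect between day 0 and 2D day 4 was tested as an interaction. It called none of 35 members for DENND5A (1.83% of all genes were called) or AVL9 (1.22%), with none at an unadjusted p under 0.05.

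The mRNAs of ribosome biogenesis factors fell in both cultures. Of 24 ribosome biogenesis factors tested, 23 were lower at each of 3D days 3, 5 and 8, where 23.1%, 31.2% and 38.0% of all genes were lower, and all 24 were lower at 2D days 4 and 11 (29.6% and 23.7%). Their medians were -1.01, -1.13 and -1.28 in 3D and -1.26 and -1.11 in 2D. NOP56, a core protein of the particles that methylate ribosomal RNA, read 48.5, 36, 37.6 and 31.1 FPKM at day 0, 14 and 15.3 at 3D day 8, and 11.6, 12.8 and 9.75 at 2D day 4. Both cultures were below every day 0 library. FBL, the methyltransferase of the same particles, read 77.6 to 117 FPKM at day 0, 57.7 and 57.4 at 3D day 8 and 25.4 to 36.6 at 2D day 4. In the test of 3D against 2D, 5 of the 24 were higher and 5 lower, with a median of -0.07, where 56.9% of all genes were called. Over the alternatives 4 to 8 were higher and 4 to 14 lower, with a median of -0.31 to 0.08.

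MYC, the growth-linked transcription factor, read 82.3 to 126 FPKM at day 0, 21 and 20.8 at 3D day 8, and 24 to 36.1 at 2D day 4. It fell by 2.16 and 1.60 on the log2 scale (limma, adjusted p 3.34e-08 and 2.97e-07), and the groups did not overlap. Of the 12 genes of the RNA polymerase I and MYC list, 5, 5 and 6 were lower at 3D days 3, 5 and 8 and 7 and 8 at 2D days 4 and 11, with none higher. The shares of all genes lower in these 5 comparisons were 23.1%, 31.2%, 38.0%, 29.6% and 23.7%, and the list's medians were -0.29, -0.24, -0.40, -0.54 and -0.57. Under the alternatives 5 to 8, 5 to 6 and 5 to 7 were lower in 3D, and 6 to 8 and 8 to 10 in 2D. Up to 1 was then higher at 3D days 5 and 8, and the day 3 median ran from -0.55 to -0.15. POLR1A, the largest subunit of RNA polymerase I, fell by 1.70 at 3D day 8 (SE 0.14) and by 1.11 at 2D day 4 (SE 0.12). Of 19 translation initiation factors, 12, 13 and 14 were lower in 3D at days 3, 5 and 8, and 16 and 15 in 2D at days 4 and 11, while 2, 1, 1, 1 and 1 were higher, beside the same shares of all genes lower (23.1%, 31.2%, 38.0%, 29.6% and 23.7%). EIF4G1, the scaffold of the cap-binding complex, fell by 2.02 at 3D day 8 (SE 0.14) and by 1.12 at 2D day 4 (SE 0.12).

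Of 10 other mRNAs known for a TOP motif, 4, 7 and 5 were higher at 3D days 3, 5 and 8 and none lower, where 28.0%, 26.4% and 24.7% of all genes were higher. Over the alternatives 3 to 7, 6 to 8 and 5 to 7 were higher and up to 2, 1 and 1 lower, and the day 3 median of 0.34 ran from 0.04 to 0.46. In the test of 3D against 2D, 8 were higher (22.1% of all genes were), with a median of 0.47 (5 to 9 higher and 0 to 2 lower over the alternatives). TPT1, an abundant growth-related protein, read 725 to 922 FPKM at day 0, 1702 and 1757 at 3D day 8 and 1061 to 1365 at 2D day 4. It rose by 1.03 ± 0.16 and 0.56 ± 0.14 (limma, adjusted p 1e-05 and 0.00144). EIF3E, a subunit of an initiation factor, was higher in 3D than in 2D by 0.67 ± 0.10 (adjusted p 1.12e-05). GNB2L1, the RACK1 protein of the small subunit, was higher by 0.72 ± 0.12 (adjusted p 3.19e-05). EEF1A1, the main elongation factor, was also called but ran from 0.108 to 1.69 FPKM, a low level for this gene. In 2D culture 2 of the 10 were higher and 2 lower at each time, where 59.9% (day 4) and 55.9% (day 11) of all genes were called in either direction. Over the alternatives 1 to 4 were higher and 1 to 2 lower at day 4, and 2 to 3 higher and 0 to 3 lower at day 11.

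The paralog RPL22L1 was lower than at day 0 in both cultures: it read 77.3 to 98.9 FPKM at day 0, 47.4 and 67.6 at 3D day 8, and 27.6 to 43.3 at 2D day 4. It fell by 0.67 (SE 0.23, limma, adjusted p 0.0161) and by 1.45 (SE 0.20, adjusted p 4.32e-06), without overlap. Between the cultures it was higher in 3D than in 2D by 0.64 ± 0.15 (adjusted p 0.00144), the direction of the members. In AVL9-KD at 2D day 4, 19 of the 24 biogenesis factors and 7 of the 19 initiation factors were called, all higher than wild type, where 21.0% of all genes were called, and MYC was higher by 1.35 ± 0.22 (adjusted p 0.000278). Over the alternatives the biogenesis count ran from 8 to 21, and the initiation count from 3 to 10 higher and 0 to 1 lower, with a median of 0.03 to 0.37. None of the 9 snoRNA host genes listed was analysed.

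**Figure D5:**
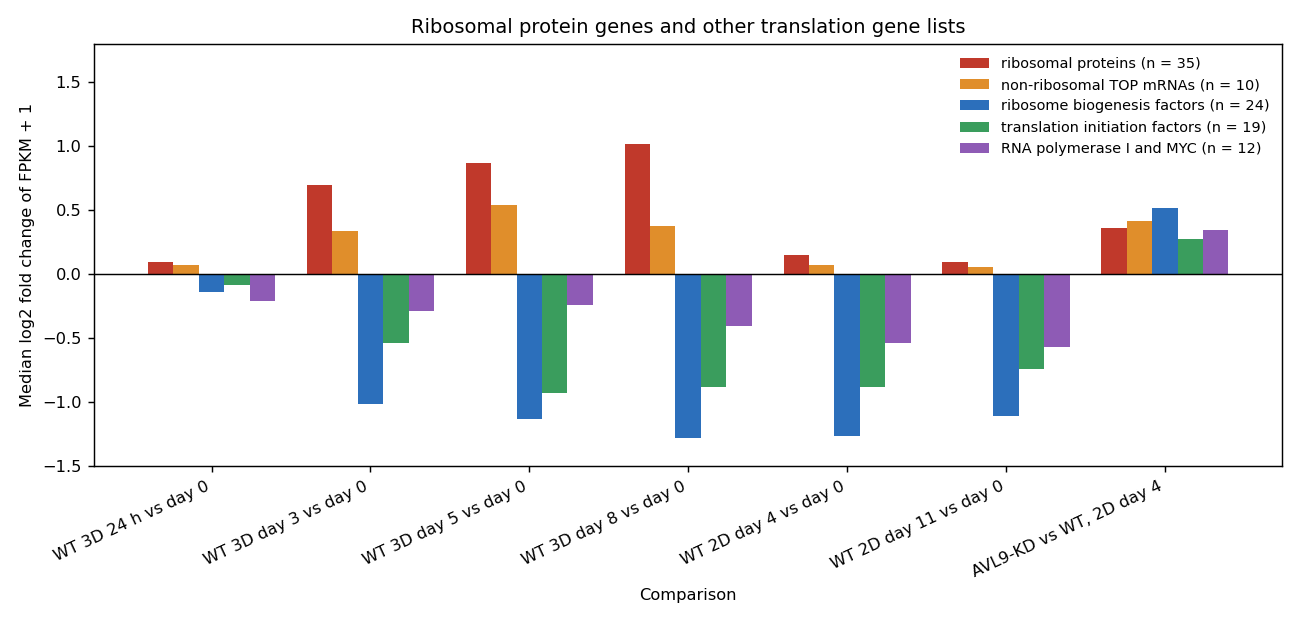
Median log2 fold change of FPKM + 1 over the tested genes of 5 lists in 7 comparisons. Bars are medians over genes, with no error bar. The ribosomal proteins and the other TOP mRNAs lie above 0 in 3D from day 3 on, and the biogenesis factors are at -1.28 at 3D day 8 and at -1.26 at 2D day 4.

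The single day 14 cyst library is shallow and has no replicate, so it was described without a test. Against the shallow day 0 library, 26 of 26 members of the highest class were higher, by a median of 0.96 on the log2 scale. It held the highest level of all libraries for 5 of the 26, RPL10A (910 FPKM), RPL15 (1566 FPKM), RPL8 (1404 FPKM), RPL13 (194 FPKM) and RPS3 (1014 FPKM), and day 5 replicate 2 held it for the other 21. RPL10A and RPL15 also read higher in the shallow library of each of the 4 groups compared above.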

How the data were processed

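Poly(A) RNA of 29 MDCKII libraries was sequenced from a stranded kit, per the labels' protocols. The authors deposited 1 file per library with FPKM for 24223 dog genes. The submitters' processing notes name HISAT2 2.1.0 and Cufflinks 2.2.1, and canFam3 and CanFam3.1 as genome builds, without saying what each did. Absolute depth is unknown for FPKM values, and the ratios of the lowest values gave relative depth only. Total FPKM per library ran from 276017 to 441332.

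Members were matched by symbol, and 40 of 42 are in RefSeq, which was used for names only. No sequence tables were given, so no sequences are shown. Members and gene lists were chosen with earlier results of these data known. Of all genes, 5715 had no symbol, 126 of them with a mean of at least 100 FPKM, and could not be matched to the rule.

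The model was limma 3.58.1 with a trended prior (R 4.3.3) on log2(FPKM + 1) of 11774 genes, 1 mean per group over all libraries, with 18 contrasts tested 2-sided and Benjamini-Hochberg adjustment over all genes. Alternatives were quantile normalization, median-ratio scaling, equal totals over the other genes, a pseudocount of 0.1, no filter, the replicate block (duplicateCorrelation), a batch term for or omission of the shallow libraries (the batch term left out day 14) and leaving out each library. Genes with values were named by a rule: up to 6 members per comparison with the largest called change, at least 5 FPKM and no overlap, the 8 with the widest departure from the median profile, members listed at 0, a fixed set including RPL5, RPL11, RPS19 and RPSA, and up to 4 per other list. RPL8, RPL15, RPL28, RPL13, RPS3 and RPS4X were also given as examples after their values were seen, where that rule did not name them. Some genes that the rule names are not reported here by name, and counts and medians include them. On simulated data with 200 of 11774 genes changed, a log2 change of 1 was recovered for 82.1% at 3D day 8 and 86.6% at 2D day 4, and one of 0.5 for 22.4% and 28.4%. In the data many more genes were called (7055 at 2D day 4), which loosens the cutoff on p. These recoveries therefore do not give the detection rate in the data. Python 3.11.15 with pandas 2.3.3, numpy 2.4.6 and matplotlib 3.10.9 was used.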

Additional observations from a re-analysis of the deposited data

Results flagged for a closer look

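At day 0, 38 sets of 4 values were looked at for a library far from the others (Dixon's ratio of gap to range). Of these sets, 5 held one, where chance flags about 1 in 20 sets of independent, normally distributed values. Among the 5 were RPS7 (328 FPKM), low in replicate 4, RPL31 (0.15 FPKM) above 0 only in replicate 4, and RPL34 (3.76 FPKM) and RPS15A (4.31 FPKM) high in the shallow replicate 1. The sets share the same 4 libraries and some lie near 0, so 5 of 38 is not read as more than chance.

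The response to culture differed between 3D and 2D by the direct test, with 30 of 35 members higher in 3D. The day 14 library, which enters no test, held a summed 20033 FPKM of the members against 7501 to 10483 FPKM at day 0.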

How the results depend on the processing

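The counts for 3D days 3, 5 and 8, for day 8 against 24 h and for 3D against 2D stayed within 1.5 times under all 8 alternatives other than leaving out a library, and no named gene changed direction under any alternative. With quantile normalization, higher calls moved to 12 at 2D day 4, 8 at 2D day 11, 3 for AVL9-KD against wild type at day 0, 3 for DENND5A-KD 2D day 4 against day 0 and 10 for AVL9-KD 2D day 4 against day 0. With median-ratio scaling they moved to 4 at 2D day 4, 2 at 2D day 11, 0 for AVL9-KD at day 0, 0 for AVL9-KD at 2D day 4 and 1 for DENND5A-KD 2D day 4 against day 0. With equal totals over the other genes they were 5 (2D day 4), 0 (AVL9-KD at day 0), 1 (DENND5A-KD 2D day 4 against day 0) and 5 (AVL9-KD 2D day 4 against day 0). Without the filter, AVL9-KD at day 0 and AVL9-KD 2D day 4 against day 0 had 0 each, and with a pseudocount of 0.1 the latter had 2. Without the shallow libraries there was 1 at 2D day 4 and 5 for AVL9-KD at day 0. The term for the shallow libraries gave 4 for AVL9-KD at both times and 2 for AVL9-KD 2D day 4 against day 0. The cause of these moves was not tested.

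Over 41 pairs of wild-type libraries of the same number, deviations from the group means correlated with r from -0.16 to 0.558 (median 0.08), and since not every pair was over 0.1, the numbers were not taken as pairing the samples. Among the seeded cells, the day 3 and day 8 cysts and the day 4 monolayers, however, the 6 pairs of replicate 1, all shallow, had r of 0.399 to 0.558. The 6 pairs of replicate 2 had 0.233 to 0.472. In a group of 2 libraries the deviations are equal and opposite, so the replicate 2 values partly mirror those of replicate 1. The replicate 1 libraries did deviate together, and the replicate 2 values are no separate evidence of pairing. Not every library correlated best with its own number. Same-numbered libraries of DENND5A-KD (r from 0.01 to 0.097, 6 pairs) and AVL9-KD (r of 0.358, 2 pairs) may be 1 line each, which the labels do not say. These groups hold 2 libraries each, so the 2 AVL9-KD pairs mirror each other and give 1 value. With the replicate block (consensus correlation 0.201), 4 members were higher in AVL9-KD at 2D day 4 and 2 in AVL9-KD 2D day 4 against day 0, and no other count moved by over 1.5 times.

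Leaving out 1 library gave 10 to 27 higher calls at 3D day 3, 13 to 29 at day 5, 27 to 33 at day 8, 19 to 26 for day 8 against 24 h, 28 to 34 for 3D against 2D, 1 to 3 at 2D day 4, 1 to 4 at 2D day 11, 0 to 4 for AVL9-KD at day 0 and at 2D day 4, 0 to 1 for DENND5A-KD and for AVL9-KD 2D day 4 against day 0, and 0 in the other comparisons. Of single named changes under all alternatives, 533 stayed on their side of the threshold and 53 lost their call. Scaled by median ratio, the summed level was 21014 at 3D day 8, 20686 at day 14, and 10222 and 10268 in AVL9-KD at day 0 and 2D day 4. With 2 libraries in most groups, small changes may have gone uncalled, and how often this happened at 0.5 on the log2 scale was not measured in these data.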
